A study of Homo sapiens with 2 samples.

Results

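H/ACA box small nucleolar RNAs and the small RNAs of Cajal bodies were compared between 2 libraries of KYSE30, an established line derived from a squamous cell carcinoma of the esophagus. The RHCG library came from stable transfectants of an expression vector for human RHCG, an ammonia and ammonium transporter, and the mock library from stable transfectants of pIRES2-EGFP, a vector with a fluorescent marker. The labels do not say whether the transfectants were single clones or pools, or whether both vectors share a backbone. Both libraries were made from total RNA depleted of ribosomal RNA and sequenced on an Ion Torrent platform. Genes were selected on a symbol that starts with SNORA or SCARNA followed by a digit and on a deposited level above 0 in at least 1 library, the one measured value that the choice used. This gave 108 of 132 rows with such a symbol (84 SNORA and 24 SCARNA genes), among 12857 genes above 0 in at least 1 library. Each group had a single library and so no replicate spread, no test was made between the groups, and every difference compares these 2 libraries. In bulk RNA, less RNA per cell and fewer cells of a kind cannot be told apart.

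H/ACA RNAs fold into a pair of hairpins, with an H box between them and an ACA triplet just before the 3′ end. They guide the pseudouridine synthase dyskerin, with NOP10, NHP2 and GAR1, to uridines in ribosomal RNA. The Cajal body RNAs, named SCARNA, guide modification of spliceosomal small nuclear RNAs. Some of them are of the H/ACA kind, some of the C/D kind that guides methylation of the ribose, and some hold both. Human RNAs of these kinds are mostly cut out of introns of host genes after splicing, and telomerase RNA carries the same H/ACA fold.

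The RNAs that the results below turn on are shown as DNA letters from the GENCODE 29 transcripts (GRCh38), 5′ to 3′. They were chosen as the most abundant RNA, a near-identical pair, the 3 RNAs called higher, the 2 with the lowest ratios, and a chromosome 13 RNA. Capitals mark the ACA that lies 3 bases before the 3′ end and the letters ANANNA nearest to the middle of the RNA, where the central of 3 equal sections of the RNA holds such a match. A match is a match of letters only. SNORA57, SNORA54 and SNORA1 lie on chromosome 11, SNORA7A and SNORA7B on chromosome 3, SCARNA11 on chromosome 12, SNORA27 and SNORA31 on chromosome 13 and SNORA5B on chromosome 7.
SNORA57: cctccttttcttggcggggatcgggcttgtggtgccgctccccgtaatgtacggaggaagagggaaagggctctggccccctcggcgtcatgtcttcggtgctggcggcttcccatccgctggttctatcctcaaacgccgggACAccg
SNORA7A: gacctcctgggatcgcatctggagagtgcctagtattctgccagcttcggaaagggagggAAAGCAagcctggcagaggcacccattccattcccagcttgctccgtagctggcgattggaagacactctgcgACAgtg
SNORA7B: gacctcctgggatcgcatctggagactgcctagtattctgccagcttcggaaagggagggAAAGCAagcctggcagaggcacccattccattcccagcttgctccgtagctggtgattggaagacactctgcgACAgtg
SCARNA11: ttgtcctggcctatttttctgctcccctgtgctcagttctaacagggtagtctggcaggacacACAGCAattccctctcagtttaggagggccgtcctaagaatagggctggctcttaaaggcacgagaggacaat
SNORA1: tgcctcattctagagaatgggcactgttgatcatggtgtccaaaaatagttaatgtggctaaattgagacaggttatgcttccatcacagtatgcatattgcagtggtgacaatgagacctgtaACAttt
SNORA27: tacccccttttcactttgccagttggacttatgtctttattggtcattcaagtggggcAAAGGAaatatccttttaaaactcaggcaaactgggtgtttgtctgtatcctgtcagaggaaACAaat
SNORA54: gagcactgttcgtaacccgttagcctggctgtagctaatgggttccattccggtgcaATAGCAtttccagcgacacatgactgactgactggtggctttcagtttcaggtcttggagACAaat
SNORA5B: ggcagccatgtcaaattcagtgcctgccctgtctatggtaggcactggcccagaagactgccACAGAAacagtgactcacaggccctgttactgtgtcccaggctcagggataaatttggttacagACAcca
SNORA31: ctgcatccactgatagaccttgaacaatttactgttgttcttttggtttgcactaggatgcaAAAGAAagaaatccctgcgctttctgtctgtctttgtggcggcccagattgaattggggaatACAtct

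The class given by the symbols was checked against these letters, searched on the sense strand alone. Among 81 SNORA members with a sequence, 61 (75.3%) had ACA exactly 3 bases before the 3′ end, against 3 of 114 box C/D RNAs (2.63%), the other large class of small nucleolar RNA. In the central section ANANNA was present in the letters of 76 SNORA members (93.8%) and of 27 box C/D RNAs (23.7%). The median length was 134 bases for SNORA members and 76 for box C/D RNAs, so the classes also differ in how much sequence was searched.

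Values are deposited as log2 of RPKM, that is, reads per kilobase of RNA scaled to library depth, and are given here unlogged. The depth scaling corresponded to about 22100000 reads in the RHCG library and about 18900000 reads in the mock library. Of the members, 106 were above 0 in each library and 104 in both. Levels ran between 1.03 and 7429 RPKM in the RHCG library and between 1.01 and 7714 RPKM in the mock library, with medians of 168 RPKM in the RHCG library and 159 RPKM in the mock library over listed members. The approximate reads behind 1 member ran between 2.94 and 24424 in the RHCG library and between 2.67 and 21773 in the mock library. RHCG itself, on chromosome 15, was at 413 RPKM in the RHCG library and was listed at 0 in the mock library.

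The levels of the same RNA in both libraries lay close together, with a Pearson r of 0.986 between log2 levels across the 104 members listed in both. The log2 ratio of RHCG over mock, with 1 RPKM added to each value, had a median of 0.09 over the 108 members, beside −0.01 over all 12857 genes. A ratio of 1 or more is called higher and of −1 or less lower. By this 2-fold rule 3 members (2.78%) were higher and 0 were lower, while 2.74% of all genes were higher and 3.30% were lower. The share of higher members was thus near that of all genes. The SNORA genes had a median of 0.08 with 46 of 84 above 0, and the SCARNA genes a median of 0.09 with 13 of 24 above 0. At 1.5-fold, 21 members (19.4%) were higher and 5 (4.63%) lower, beside 11.3% and 11.5% of all genes. The 145 box C/D RNAs stood further up, with a median of 0.32, 11 higher and 4 lower by the 2-fold rule, and 35 (24.1%) higher and 8 (5.52%) lower at 1.5-fold. The difference between the classes was not tested. As a check of the cell type, 9 of 10 squamous epithelium markers were listed, and KRT5 was at 0 in both libraries. Of these 9, 0 were higher and 3 lower by the 2-fold rule, and 2 had log2 ratios above 0 and 7 below. The lower ones were KRT6A (3.51 RPKM in RHCG and 38.8 RPKM in mock), KRT15 (27.3 RPKM in RHCG and 101.0 RPKM in mock) and SOX2 (9.62 RPKM in RHCG and 23.1 RPKM in mock). DSG3 (12.6 RPKM in RHCG and 7.01 RPKM in mock) and KRT14 (4.21 RPKM in RHCG and 3.31 RPKM in mock) stood the other way, short of 2-fold.

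**Figure D1:**
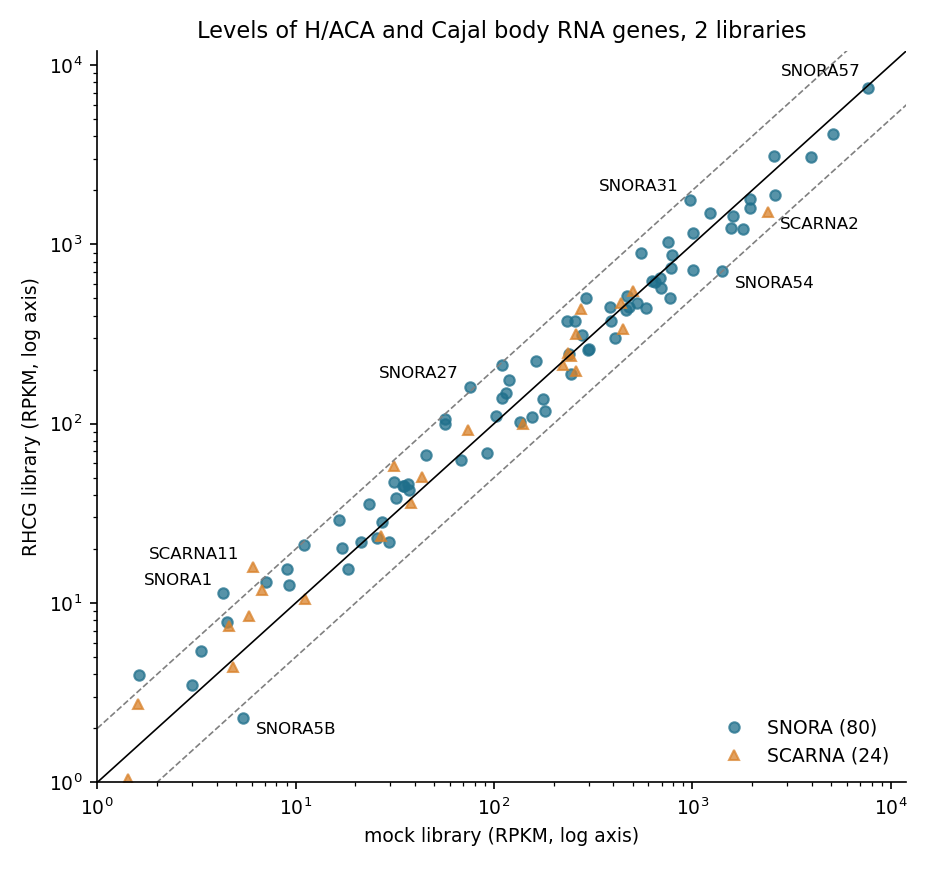
Level of each of the 104 members above 0 in both libraries, with RPKM in the mock library on the horizontal axis and RPKM in the RHCG library on the vertical axis, both on log scales. Circles are SNORA genes and triangles SCARNA genes, the solid line is equality and the dashed lines are 2-fold. Most points lie between the dashed lines, and SCARNA11, SNORA1, SNORA27 and SNORA41 lie above the upper one and SNORA5B below the lower one, on plain levels without the added 1 RPKM.

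A few RNAs held a large share of the reads. SNORA57, a guide for ribosomal RNA that overlaps an exon of CSKMT, was the most abundant, at 7429 RPKM in the RHCG library and 7714 RPKM in the mock library. It took 13.8% of all reads from members in the RHCG library and 13.1% in the mock library, and its ratio of 0.963 lay close to 1. SNORA7A followed at 4127 RPKM in the RHCG library and 5085 RPKM in the mock library. SNORA70 was at 3051 RPKM in the RHCG library and 3958 RPKM in the mock library. SNORA44 was at 3117 RPKM in the RHCG library and 2593 RPKM in the mock library, and so stood the other way round. SNORA7B was at 1884 RPKM in the RHCG library and 2620 RPKM in the mock library. SNORA7A and SNORA7B are 98.6% identical, with 2 mismatches, so reads cannot be safely placed between them. Both stood below the mock level without reaching 2-fold, at 0.812 and 0.719 of it as listed.

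The other RNAs among the 12 most abundant were SNORA4, SNORA80B, SNORA21, SNORA52, SNORA71D, SCARNA2 and SNORA31. SNORA4 was at 1789 RPKM in the RHCG library and 1962 RPKM in the mock library, SNORA80B at 1585 RPKM (RHCG) and 1947 RPKM (mock), and SNORA21 at 1435 RPKM (RHCG) and 1597 RPKM (mock). SNORA52 was at 1212 RPKM in the RHCG library and 1792 RPKM in the mock library, and SNORA71D at 1226 RPKM (RHCG) and 1566 RPKM (mock). All 5 were lower in the RHCG library without reaching 2-fold. Only SNORA44 and SNORA31 of the 12 had log2 ratios above 0. The 5 most abundant by reads held 39.1% of the reads from members in the RHCG library and 42.9% in the mock library. Members together took 0.804% of the scaled reads in the RHCG library and 0.877% in the mock library, a ratio of 0.917. Box C/D RNAs took 3.58% of reads in the RHCG library and 2.90% in the mock library, a ratio of 1.23.

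The ratio of the sums and the median ratio thus stood on opposite sides of equality, and the split followed abundance. The 36 most abundant members, with a mean of 381 RPKM or more, had a median log2 ratio of −0.08, with 12 above 0 and 24 below. The middle 36 had a median of 0.20 and the 36 least abundant one of 0.25, with 22 and 25 above 0. Over the 104 members listed in both libraries, log2 mean level and log2 ratio had a Pearson r of −0.36 and a Spearman rho of −0.38. These are values across genes of the same 2 libraries, which share depth and scaling, and not across replicates. Box C/D RNAs split the same way had medians of 0.27, 0.34 and 0.33, in order of rising abundance, with r = 0.12 and rho = 0.03 over 139 RNAs. All genes listed in both libraries, split by their own levels, had 47.0%, 54.6% and 50.2% above 0 in the same order. At a mean between 100 and 1000 RPKM, 47 members had a median of −0.03, with 46.8% above 0. The 666 genes there leaned down as well, with a median of −0.09 and 42.8% above 0. At 1000 RPKM or more, 15 members had a median of −0.30 and 26.7% above 0, against 0.24 and 61.3% for 106 genes. Those 106 genes include the 15 members and 71 box C/D RNAs. The 71 box C/D RNAs alone had a median of 0.34 and 78.9% above 0. The remaining genes at this level were not described apart, so the fall cannot be called particular to the members.

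Base composition moved with the same split. Members listed in both libraries and with a sequence were split by GC content. The 33 GC-poor members (32.5 to 44.7%) had a median log2 ratio of 0.40, with 27 above 0. The 32 in the middle had a median of 0.02, with 16 above 0. The 32 GC-rich members (52.2 to 72.4%) had a median of −0.29, with 10 above 0. Over these 97 members, GC content and log2 ratio had r = −0.46 and rho = −0.49, and GC content and log2 mean level had r = 0.44 and rho = 0.44. Among the 32 of middle abundance and the 32 most abundant of these members, GC content and ratio had r = −0.56 and r = −0.41, and among the 33 least abundant r = −0.17. SNORA genes had r = −0.48 (n = 77) and SCARNA genes r = −0.40 (n = 20). Box C/D RNAs had r = −0.38 (n = 108), and their GC-poor, middle and GC-rich members all had medians above 0 (0.34, 0.35 and 0.24). Length and ratio had r = −0.08 over the 97 members. The part of base composition in the ratios was not tested.

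**Figure D2:**
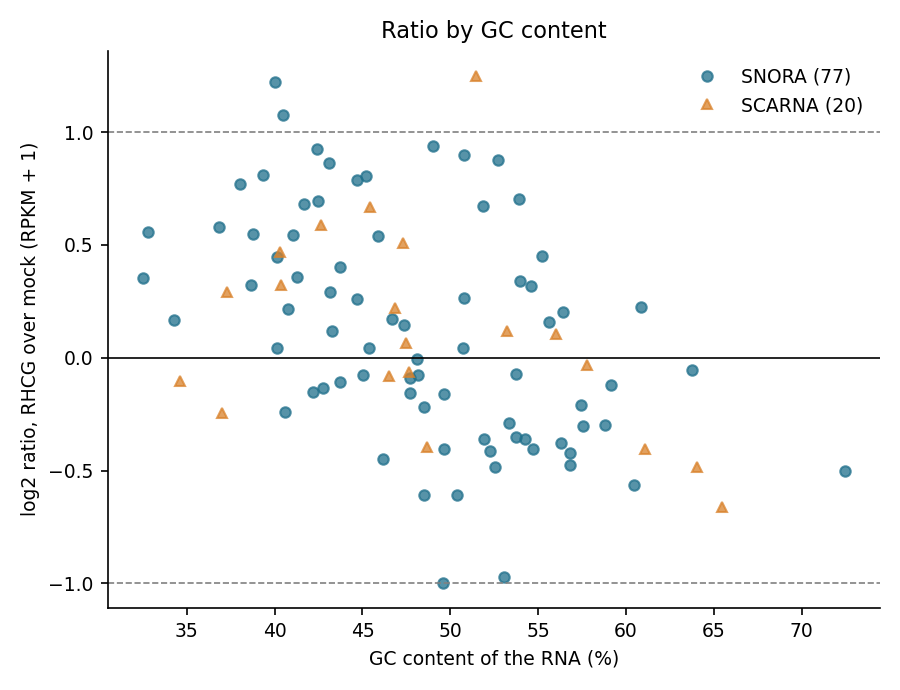
The log2 ratio of RHCG over mock, with 1 RPKM added, plotted against the GC content in % of each of 97 members with a sequence; circles are SNORA genes and triangles SCARNA genes, and dashed lines mark 2-fold. Ratios lie mostly above 0 among the 33 GC-poor members, with a median of 0.40, and mostly below 0 among the 32 GC-rich members, with a median of −0.29.

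The 3 RNAs called higher differ in how many reads they rest on. SNORA27, from RPL21 on chromosome 13, was at 161 RPKM in the RHCG library and 75.9 RPKM in the mock library. Its plain ratio of 2.12 had an approximate 95% exact (Clopper-Pearson) counting interval of 1.78 to 2.54, from about 448 reads in the RHCG library and 181 in the mock library. SCARNA11, from an intron of CHD4, was at 15.9 RPKM in the RHCG library and 6.11 RPKM in the mock library, a ratio of 2.60 with an interval of 1.44 to 4.86. SNORA1, from TAF1D, was at 11.3 RPKM in the RHCG library and 4.29 RPKM in the mock library, a ratio of 2.64 with an interval of 1.27 to 5.65. SNORA27 is thus the only one of them above 100 RPKM in a library. Such intervals cover counting error only, and treat reads, which carry no molecular identifiers, as independent molecules. The host genes RPL21 (22.1 RPKM in the RHCG library and 17.2 RPKM in the mock library) and CHD4 (93.9 RPKM in RHCG and 92.5 RPKM in mock) were not past 2-fold. TAF1D, the host of SNORA1, was at 28.9 RPKM in the RHCG library and 14.2 RPKM in the mock library. Its log2 ratio of 0.97 lay just under the 2-fold rule. SNORA1 and SNORA27 overlap an exon of their hosts.

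Several more stood just under 2-fold. SNORA6, from RPSA, was at 212 RPKM in the RHCG library and 110.1 RPKM in the mock library, a ratio of 1.93 (interval 1.68 to 2.21). SNORA51, from NOP56, was at 106.7 RPKM in the RHCG library and 56.9 RPKM in the mock library. SNORA31, from TPT1 on chromosome 13, was at 1772 RPKM in the RHCG library and 974 RPKM in the mock library. It was the most abundant RNA among the 10 highest ratios, and its ratio of 1.82 had an interval of 1.73 to 1.91. Its host TPT1, whose exon it overlaps, was listed at 0 in both libraries, a value that can be a failed estimate and not a level. SNORA27 and SNORA31 are the only members on chromosome 13, where the 137 protein-coding genes at or above a mean of 3 RPKM had a median log2 ratio of 0.57. The part of that shift in both RNAs was not tested. The other high ratios belonged to less abundant RNAs. SNORA41 was at 3.97 RPKM in the RHCG library and 1.62 RPKM in the mock library, and its interval of 0.781 to 10.96 spans 1. SNORA11B was at 21.002 RPKM in the RHCG library and 10.98 RPKM in the mock library, and SNORA53 at 13.1 RPKM (RHCG) and 7.06 RPKM (mock).

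At the other end SNORA54, from an intron of NAP1L4, was at 710 RPKM in the RHCG library and 1416 RPKM in the mock library. Its log2 ratio of −0.996 lay just inside the 2-fold rule, and its plain ratio of 0.501 had an interval of 0.473 to 0.530. SNORA5B, from TBRG4, was at 2.30 RPKM in the RHCG library and 5.46 RPKM in the mock library, from about 6.69 reads in the RHCG library and 13.7 in the mock library, and its interval of 0.147 to 1.14 spans 1. SNORA54 therefore carries the lowest ratio that rests on many reads, about 1926 in the RHCG library and 3300 in the mock library, and its host NAP1L4 was at 37.9 RPKM in the RHCG library and 67.5 RPKM in the mock library. SCARNA2 came next, with a log2 ratio of −0.66. SNORA2C was at 503 RPKM in the RHCG library and 767 RPKM in the mock library, SNORA74A at 118 RPKM (RHCG) and 180.4 RPKM (mock), and SNORA67 at 715 RPKM (RHCG) and 1002 RPKM (mock). SNORA52, SNORA78, SNORA7B and SCARNA21 complete the 10 lowest, with log2 ratios of −0.56, −0.50, −0.48 and −0.48. Of the 104 members listed in both libraries, the approximate counting interval lay above 1 for 35, below 1 for 28 and across 1 for 41. These counts reflect counting error alone and are no call of a difference between the groups. They are given without the same count over all genes.

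**Figure D3:**
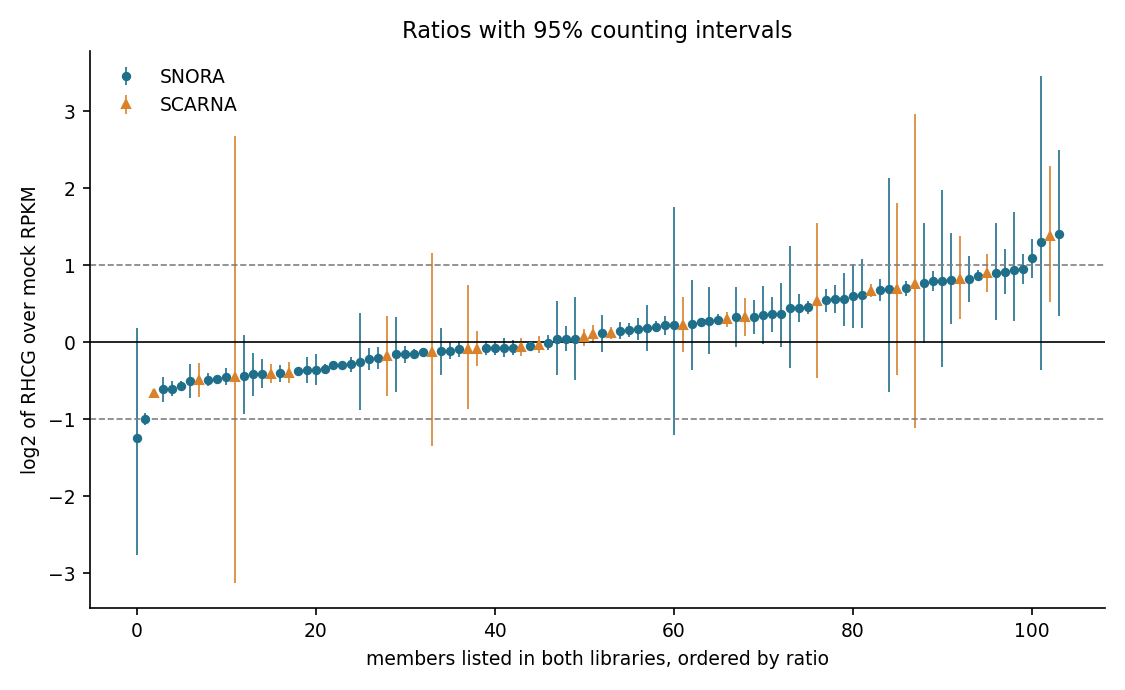
Plain log2 ratio of RHCG over mock RPKM for the 104 members above 0 in both libraries, ordered along the horizontal axis; bars are approximate 95% counting intervals and dashed lines mark 2-fold. SNORA54, at 0.501 of the mock level, has a short bar, and SNORA5B, farthest left, a bar that crosses 0.

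Of the 24 Cajal body RNAs, 13 had a log2 ratio above 0 and 11 one below. SCARNA2, a long Cajal body RNA of 420 bases, was the most abundant, at 1516 RPKM in the RHCG library and 2401 RPKM in the mock library. Its ratio was 0.631 (interval 0.618 to 0.645), and it alone took 43.9% of the reads from SCARNA genes in the RHCG library and 57.7% in the mock library. Reads from SCARNA genes together were 0.145% of the scaled reads in the RHCG library and 0.175% in the mock library, a ratio of 0.829. SCARNA6 was at 547 RPKM in the RHCG library and 504 RPKM in the mock library, and its neighbour SCARNA5, in the same host gene ATG16L1, at 248 RPKM (RHCG) and 237 RPKM (mock). SCARNA22 was at 472 RPKM in the RHCG library and 438 RPKM in the mock library. The ratios of these 3 lay between 1.05 and 1.09. SCARNA10, from NCAPD2, was at 438 RPKM in the RHCG library and 275 RPKM in the mock library, a ratio of 1.59 (interval 1.498 to 1.69). SCARNA7 was at 317 RPKM in the RHCG library and 258 RPKM in the mock library.

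The letters searched differed within this class. SCARNA5, SCARNA6, SCARNA7, SCARNA10 and SCARNA12 had TGATGA, the core of the C box, within the first 15 bases and CTGA, the D box, within the last 15. Each of them is 265 bases or longer. Within the first 15 bases TGATGA was found in 64 of 114 box C/D RNAs (56.1%) and in 1 of 81 SNORA members (1.23%). SCARNA5, SCARNA6, SCARNA7, SCARNA10 and SCARNA12 had log2 ratios of 0.06, 0.12, 0.29, 0.67 and −0.03. Of 20 SCARNA members with a sequence, 11 had ACA exactly 3 bases before the 3′ end, and none of the 5 was among them. SCARNA2, SCARNA3, SCARNA11 and SCARNA14 also had no ACA at that place. With ACA anywhere in the last 9 bases, 15 of the 20 had a match, SCARNA12 among them. The letters TGAG, the core of the Cajal body box, occurred in 13 of these 20 (65.0%), in 34 of 81 SNORA members (42.0%) and in 90 of 114 box C/D RNAs (78.9%), so they do not set the class apart.

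Among the other Cajal body RNAs, SCARNA9 lies on chromosome 11 and SCARNA9L, named for its likeness to it, on chromosome X. SCARNA9 was at 58.4 RPKM in the RHCG library and 31.4 RPKM in the mock library, and SCARNA9L at 11.8 RPKM (RHCG) and 6.74 RPKM (mock). Their ratios were 1.86 and 1.76. SCARNA20 was at 339 RPKM in the RHCG library and 449.5 RPKM in the mock library, SCARNA16 at 197 RPKM (RHCG) and 259.8 RPKM (mock), and SCARNA21 at 99.97 RPKM (RHCG) and 140.1 RPKM (mock). Those 3 lie on chromosome 17, where 7 of 8 members were below 0 and 603 protein-coding genes had a median of −0.06. SCARNA1 was at 92.7 RPKM in the RHCG library and 73.98 RPKM in the mock library. SCARNA12 (239.5 RPKM in RHCG and 245 RPKM in mock), SCARNA13 (213 RPKM in RHCG and 223 RPKM in mock), SCARNA17 (36.1 RPKM in RHCG and 38.2 RPKM in mock), SCARNA3 (50.6 RPKM in RHCG and 43.3 RPKM in mock) and SCARNA27 (23.6 RPKM in RHCG and 26.9 RPKM in mock) had RHCG over mock ratios between 0.880 and 1.17. SCARNA4, SCARNA8, SCARNA14, SCARNA15, SCARNA18 and SCARNA23 were at 11.2 RPKM or less in both libraries, and the counting interval of each spans 1.

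**Figure D4:**
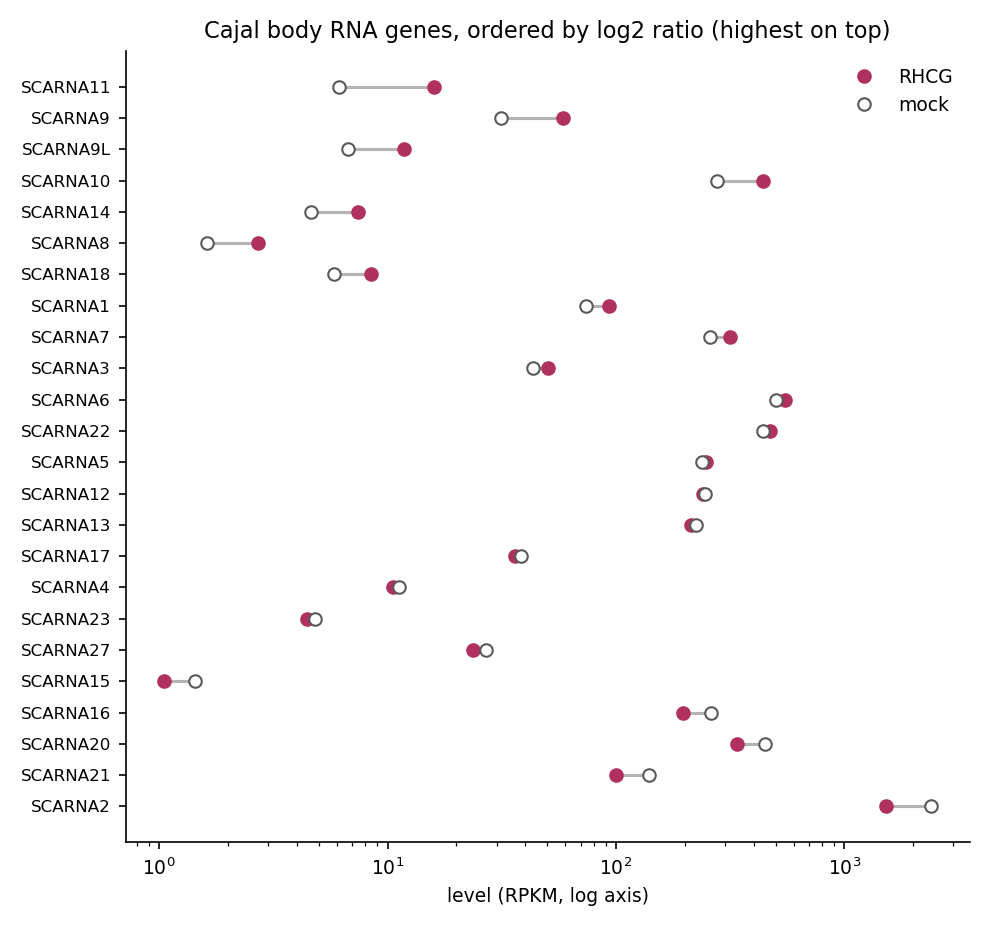
Levels of the 24 Cajal body RNA genes in RPKM on a log axis, ordered by log2 ratio with the highest on top; filled points are the RHCG library and open points the mock library. SCARNA11 on top is at 15.9 RPKM in the RHCG library against 6.11 RPKM in the mock library, and SCARNA2 at the bottom at 1516 RPKM against 2401 RPKM.

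Hosts of 102 members were found in GENCODE 29 as a gene on the same strand that spans the member. Where several such genes had a value, the one with the highest summed RPKM was taken, so this choice used measured levels. Intron or exon position was judged for that gene alone. In 64 cases the RNA lay in an intron of the host and in 36 it overlapped an exon of any host transcript, where reads of host and small RNA can be shared. For 94 members both the RNA and its host were above 0 in both libraries. Of these, 67 were above the host's RPKM in both libraries and 16 below it in both. Over the 94, the member and host log2 ratios had r = 0.15 and rho = 0.20, and 58 had the same sign as the host. Across the 60 intronic RNAs the member and host log2 ratios had r = −0.06 and rho = 0.03, and across the 34 that overlap an exon r = 0.40 and rho = 0.43. RNAs of the same host repeat its ratio in these values, as the 6 RNAs of TAF1D do among those that overlap an exon. With the median ratio of its RNAs taken for each of the 75 hosts, r was 0.13 and rho 0.17. The 75 hosts had a median log2 ratio of −0.04, with 2 higher and 3 lower, numbers near the 2.74% and 3.30% of all genes. These 5 hosts and their RNAs are named below because of their values.

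TAF1D, which encodes a subunit of the RNA polymerase I factor SL1, hosts SNORA1, SNORA8, SNORA18, SNORA25, SNORA32 and SNORA40. TAF1D was at 28.9 RPKM in the RHCG library and 14.2 RPKM in the mock library, a log2 ratio of 0.97. The log2 ratios of all 6 RNAs lay above 0, between 0.12 and 1.22. The most abundant, SNORA8, was at 891 RPKM in the RHCG library and 550.0 RPKM in the mock library, and SNORA18 at 503 RPKM (RHCG) and 290.5 RPKM (mock). SNORA32 was at 29.1 RPKM in the RHCG library and 16.6 RPKM in the mock library, and SNORA25 at 111 RPKM (RHCG) and 102 RPKM (mock). All 6 overlap an annotated exon of TAF1D.

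Other hosts and their RNAs stood apart. SNHG17, a non-coding host gene, was at 42.0 RPKM in the RHCG library and 15.02 RPKM in the mock library (log2 ratio 1.43, higher). Its 4 intronic RNAs SNORA71A, SNORA71B, SNORA71C and SNORA71D had log2 ratios between −0.35 and −0.07. ODC1, ornithine decarboxylase, was at 208.8 RPKM in the RHCG library and 106 RPKM in the mock library (0.97), while its RNA SNORA80B was at −0.30. SNHG15 was at 54.1 RPKM in the RHCG library and 26.6 RPKM in the mock library (0.99), with SNORA9 at −0.40. The mismatch also ran the other way. TCP1, a chaperonin subunit, was at 42.9 RPKM in the RHCG library and 89.7 RPKM in the mock library (−1.05, lower), with SNORA20 at 0.45. The other RNA of TCP1, SNORA29, was at −0.01 and was listed in the mock library only. DGLUCY was at −1.33 with SNORA11B at 0.88. SNHG9 (−1.36, lower) and SNORA78 (−0.50) lay on the same side, as did ZBED3 (1.24, higher) and SNORA47 (0.22), and EIF4A1 (−0.55) with SNORA48 (−0.29) and SNORA67 (−0.49). The 12 ribosomal protein host genes had a median of −0.37 and their 14 RNAs one of 0.09.

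**Figure D5:**
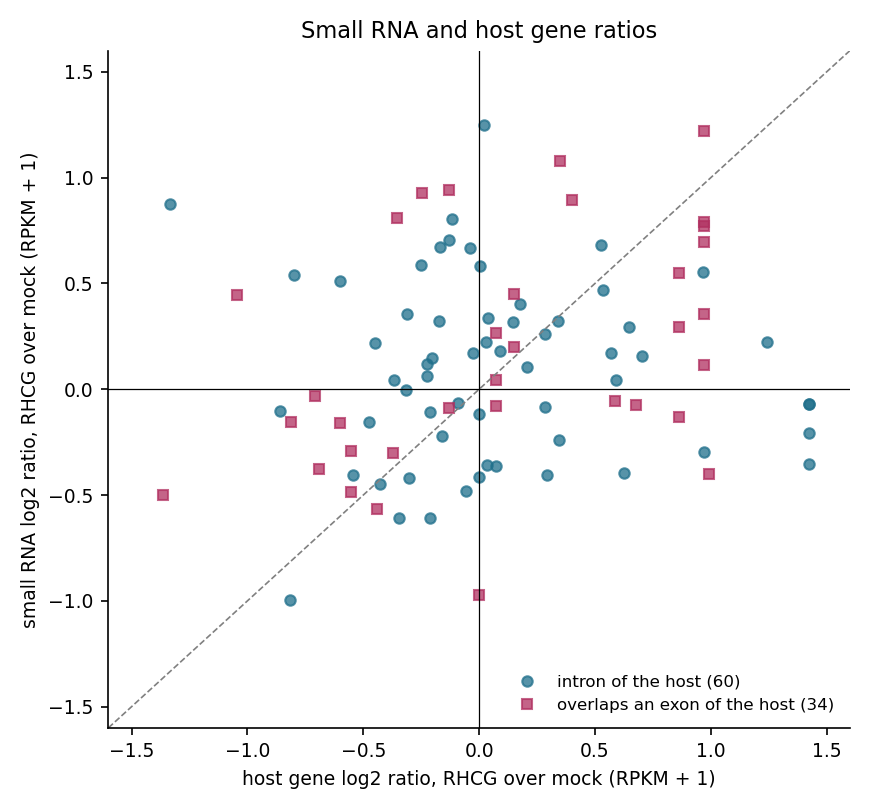
The log2 ratio of RHCG over mock of each small RNA (vertical axis) against that of its host gene (horizontal axis), both with 1 RPKM added, for 94 members; circles lie in an intron of the host, squares overlap a host exon, and the dashed line is equality. The column of 4 circles at a host ratio of 1.43 is SNHG17 with SNORA71A to SNORA71D.

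Copies within families were listed at very different levels. SNORA70, from RPL10, was among the most abundant RNAs in both libraries. Its relative SNORA70B was at 1.35 RPKM in the RHCG library and listed at 0 in the mock library, SNORA70G at 1.03 RPKM in the RHCG library and listed at 0 in the mock library, and SNORA70C, SNORA70D, SNORA70E and SNORA70F were listed at 0 in both. SNORA70B is 90.4% identical to SNORA70. SNORA14A was at 99.3 RPKM in the RHCG library and 56.4 RPKM in the mock library, and SNORA14B, 91.1% identical, at 314 RPKM (RHCG) and 279 RPKM (mock). Their ratios were 1.76 (interval 1.44 to 2.17) and 1.13 (1.02 to 1.24). SNORA29 was listed at 0 in the RHCG library and at 1.01 RPKM in the mock library, and SNORA2B at 0 in the RHCG library and 1.10 RPKM in the mock library. These 4 RNAs listed in 1 library lie just above the limit of 1 RPKM. Their log2 ratios, between −0.07 and 0.23, depend on the 1 RPKM set for a value of 0. They count among the 108 members, whose median of 0.09 was 0.11 over the 104 listed in both libraries.

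The remaining 24 rows were listed at 0 in both libraries. They include SNORA73A and SNORA73B, which act in early ribosomal RNA processing, whose host RCC1 was at 52.2 RPKM in the RHCG library and 46.8 RPKM in the mock library. SNORA17A and SNORA17B, whose host SNHG7 was at 352 RPKM in the RHCG library and 382 RPKM in the mock library, were also at 0, as were SNORA3A, SNORA3B, SNORA36A and SNORA56. A value of 0 can be a failed estimate: both libraries also list 0 for RN7SK, HSPH1 and GLUL, genes in general use by cells. Of these 24 rows 7 have another row with at least 90% identity, as have 8 of the 101 members with a sequence.

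The proteins of the particle went both ways. DKC1, which encodes dyskerin and hosts SNORA36A and SNORA56, was at 115.9 RPKM in the RHCG library and 54.8 RPKM in the mock library, a log2 ratio of 1.07, and was higher. GAR1 was at 12.2 RPKM in the RHCG library and 6.90 RPKM in the mock library, NHP2 at 56.0 RPKM (RHCG) and 89.3 RPKM (mock), and NOP10 at 19.4 RPKM (RHCG) and 19.5 RPKM (mock), none of them past 2-fold. The assembly factors RUVBL2 (120.5 RPKM in the RHCG library and 255 RPKM in the mock library) and PIH1D1 (34.4 RPKM in RHCG and 80.1 RPKM in mock) were lower. In all, 1 of 12 listed genes in the H/ACA protein list was higher and 2 were lower, beside 2.74% and 3.30% of all genes. Their median log2 ratio was −0.29. Besides proteins of the particle and assembly factors, the list held TCOF1 (−0.61) and NOP53 (−0.17), which are not core proteins of it.

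In the list of Cajal body and telomerase genes 0 of 19 listed genes were higher and 3 were lower, beside 2.74% and 3.30% of all genes, with a median log2 ratio of 0.03. TERC, the telomerase RNA with its H/ACA fold, was at 109.2 RPKM in the RHCG library and 253 RPKM in the mock library, a log2 ratio of −1.21. WRAP53, which encodes TCAB1, the protein that brings telomerase and Cajal body RNAs to Cajal bodies, was at 5.82 RPKM in the RHCG library and 13.6 RPKM in the mock library (−1.10). PHAX, an export and transport adaptor of small RNAs, was at 4.37 RPKM in the RHCG library and 10.98 RPKM in the mock library (−1.16). COIL, which encodes the Cajal body scaffold coilin, was at 11.0 RPKM in the RHCG library and 12.2 RPKM in the mock library. TERT, ICE1 and ICE2 were listed at 0 in both libraries.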

How the data were processed

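Total RNA of 2 libraries (1 RHCG, 1 mock) was depleted of ribosomal RNA before sequencing, per the labels' protocols. The deposited tables give 1 value per gene under the header RPKM, and the values are log2 of RPKM, as the authors deposited them: unlogged values times RNA length lie on whole multiples of 1 constant per library for many miRNA genes. The submitters' processing notes name hg19 and bedtools 2.25.0; for the aligner, the counting method and the use of strand, the setting is not given in the sources used here. Counts could not be recovered (1 of 9 and 1 of 14 member values under 20 reads in the RHCG and the mock library lay within 0.02 reads of a whole number), so reads and intervals are approximate.

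The 40448 rows were summed to 40392 Entrez genes, with symbols from RefSeq for 38047; 42 genes without a symbol were above 0. Genes listed at 0 were set to 1 RPKM. Ratios are log2((RHCG + 1)/(mock + 1)), called at 1 and −1, with the deposited scaling kept. The planned minimum of 1 RPKM for the mean keeps exactly the genes above 0 in at least 1 library. Hosts and sequences came from GENCODE 29 (GRCh38), by name, in place of the planned RefSeq spans; sequences were used where their length was within 10 bases of RefSeq, and no coordinates are given since the builds differ. The ratio rule was run on simulated reads with known folds. That simulation held counting error only, so it cannot show how often differences between single libraries pass the rule.

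Named were the 12 most abundant members, the 10 highest and 10 lowest ratios, members listed in 1 library, all SCARNA genes, called members and their hosts; other RNAs, named for their host or family, were chosen after their values were seen. The members and lists were chosen with earlier results of these data known. Python 3.11.15 was used with pandas 2.3.3, numpy 2.4.6, biopython 1.88, matplotlib 3.10.9 and scipy 1.17.1.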

Additional observations from a re-analysis of the deposited data

How the results depend on the processing

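No paired analysis was possible because each group held 1 library, which also meant that none could be left out. At 1.5-fold there were 21 higher and 5 lower members in place of 3 and 0, by construction. A pseudocount of 0.1 RPKM gave 1 lower member, as did the plain ratio (SNORA5B in both), and there was 1 with median-of-ratios scaling and with trimmed mean scaling (SNORA54). SNORA41 was also higher with the pseudocount of 0.1 RPKM and with the plain ratio, which gave 4 higher members. The median of all genes was −0.01 and −0.02 under these scalings. The median log2 ratio lay between 0.07 and 0.15 over members, 0.07 and 0.19 over SNORA genes, 0.07 and 0.11 over SCARNA genes, and 0.10 and 0.11 over members listed in both libraries, under the scalings, the pseudocount, the plain ratio, both filters, genes listed at 0 set to 0 RPKM, the row with the highest total, and members under 10 reads or with numbered copies left out. Without numbered copies, run for members and SNORA genes only, the medians were 0.15 in place of 0.09 and 0.19 in place of 0.08. The SNORA median was 0.13 with genes listed at 0 set to 0 RPKM, without members under 10 reads and with the plain ratio. The plain ratio was added after the data were seen. Depth limits the least abundant RNAs: 30 members rested on under 100 approximate reads in both libraries.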

Other observations

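Among genes for enzymes and cofactors that release and trim intron-encoded RNAs, none passed 2-fold. Of 19 listed genes 0 were higher and 0 lower by the 2-fold rule, beside 2.74% and 3.30% of all genes, with a median log2 ratio of 0.12. The most abundant were EXOSC5, a subunit of the RNA exosome, at 52.3 RPKM in the RHCG library and 48.2 RPKM in the mock library, and XRN2, a nuclear 5′ exonuclease, at 55.8 RPKM in the RHCG library and 38.8 RPKM in the mock library. RBM7 was listed at 0 in both libraries.

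Box C/D proteins, the partners of the other class, had 8 listed genes, of which 0 were higher and 0 lower, beside 2.74% and 3.30% of all genes. So short a list would hold few called genes at those shares. Their median log2 ratio was 0.23. NUFIP1 was listed at 0 in the mock library, so its ratio depends on the 1 RPKM set for a value of 0. FBL, the methyltransferase fibrillarin, was at 94.3 RPKM in the RHCG library and 172 RPKM in the mock library, and NOP56 at 91.6 RPKM in the RHCG library and 69.2 RPKM in the mock library.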
